A study of Rattus norvegicus with 24 samples.

Results

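The genes described here were the chemokines, the interleukins and the receptors of both, chosen by name: every probe of the rat array whose platform gene symbol begins with Ccl, Cxcl, Cx3cl, Xcl, Ccr, Cxcr, Cx3cr or Il followed by a number. This gave 109 probes for 106 genes, out of 22523 probes and 13337 named genes on the array. The genes comprised 17 CC chemokines, 11 CXC chemokines, 2 chemokines of other classes (Cx3cl1 and Xcl1), 15 chemokine receptors, 28 interleukins or interleukin antagonists and 33 interleukin receptors or binding proteins.

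RNA came from Sprague Dawley rat liver in 5 groups: cadaveric liver collected at harvest (n = 4), freshly isolated liver cells labelled as hepatocytes (n = 4), and acellular rat liver scaffolds reseeded with rat liver cells and sampled after 2 days (n = 4), 15 days (n = 4) or 28 days (n = 3). The labels name no engineered allele and no test agent for any group. The constructs, but not the other groups, were perfused with medium that held 1 µM dexamethasone, 10% fetal bovine serum and 10 µg/mL insulin. Cells were freed by collagenase perfusion. Whether the samples of a group came from separate donor livers is not stated in the labels or methods, so the p-values reflect the spread among the samples at hand, which may be technical.

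The labels call every sample rat hepatocytes, although cadaveric liver was whole tissue. All 11 hepatocyte marker genes examined, albumin among them, were detected on every array of every group. Of 12 Kupffer cell and macrophage markers, 11 were detected on every cadaveric liver array, 8 on every hepatocyte array, 2 on every array of day 2, 2 on every array of day 15 and 6 on every array of day 28. The 24 arrays covered 19 samples, because 5 constructs were hybridized on 2 arrays that were averaged. Between 42.1% and 50.7% of all probes were detected on an array, and the arrays give no depth of sampling other than their number. In such bulk RNA, fewer cells of a type and less RNA per cell cannot be told apart.

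Chemokines are small secreted proteins that guide leukocytes by binding receptors on their surface. Most interleukins are secreted too and act through receptors that signal mainly through JAK kinases and STAT factors or, in the IL-1 and IL-17 families, through adaptors that activate NF-κB. In the liver, Kupffer cells (the resident macrophages), endothelial cells, stellate cells and hepatocytes all contribute to both families, and IL-6 acting on hepatocytes drives the acute phase response.

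The genes of Cxcl1 and Cxcl2 neighbour each other in the rat genome, as do those of Cxcl9, Cxcl10 and Cxcl11, so the 250 bases before each gene start are shown for these 5 members, to set the windows of neighbouring genes side by side. Cxcl1 and Cxcl2 were both higher in hepatocytes than in liver and both lower on day 2, where Cxcl10 and Cxcl11 were lower and Cxcl9 higher than in hepatocytes. Sequences are from RefSeq, build GRCr8, written 5′ to 3′ on the strand of the gene. The windows lie at chr14:17479322-17479571 (minus strand) for Cxcl1, chr14:17467256-17467505 (minus strand) for Cxcl2, chr14:16006916-16007165 (plus strand) for Cxcl9, chr14:15988816-15989065 (plus strand) for Cxcl10 and chr14:15973478-15973727 (plus strand) for Cxcl11. Capitals mark matches, on either strand, to GGGA and TTCC parted by any 2 bases, a binding motif of NF-κB, or to GAAA and GAAA parted by any 2 bases, the core of the interferon-stimulated response element.
Cxcl1: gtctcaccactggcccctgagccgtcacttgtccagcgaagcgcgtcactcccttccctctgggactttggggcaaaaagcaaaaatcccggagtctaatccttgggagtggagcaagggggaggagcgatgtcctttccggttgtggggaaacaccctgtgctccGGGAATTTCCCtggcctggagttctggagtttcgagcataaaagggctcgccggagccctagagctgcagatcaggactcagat
Cxcl2: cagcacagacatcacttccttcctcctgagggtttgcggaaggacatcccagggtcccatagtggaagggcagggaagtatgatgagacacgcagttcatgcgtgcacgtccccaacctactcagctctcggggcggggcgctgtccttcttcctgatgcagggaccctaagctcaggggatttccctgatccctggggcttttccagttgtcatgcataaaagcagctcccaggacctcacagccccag
Cxcl9: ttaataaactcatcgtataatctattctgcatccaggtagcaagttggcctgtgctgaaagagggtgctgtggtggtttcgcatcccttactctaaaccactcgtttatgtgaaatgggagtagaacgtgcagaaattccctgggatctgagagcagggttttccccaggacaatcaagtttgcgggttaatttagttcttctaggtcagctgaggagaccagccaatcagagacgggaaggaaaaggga
Cxcl10: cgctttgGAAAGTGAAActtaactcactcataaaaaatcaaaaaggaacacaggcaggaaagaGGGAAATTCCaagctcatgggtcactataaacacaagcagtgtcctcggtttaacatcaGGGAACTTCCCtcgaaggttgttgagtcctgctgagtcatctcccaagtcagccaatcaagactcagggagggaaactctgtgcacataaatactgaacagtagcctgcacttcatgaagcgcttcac
Cxcl11: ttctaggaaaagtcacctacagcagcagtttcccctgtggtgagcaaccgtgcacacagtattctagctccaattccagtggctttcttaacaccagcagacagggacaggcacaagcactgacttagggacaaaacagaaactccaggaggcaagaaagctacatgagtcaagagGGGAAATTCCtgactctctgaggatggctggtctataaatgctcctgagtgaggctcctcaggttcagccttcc
The NF-κB letters stood before Cxcl1, Cxcl10 and Cxcl11 and were not in the windows of Cxcl2 and Cxcl9. The response element letters were in the window of Cxcl10 alone among these 5. A table of promoters held 82 of the 106 member genes, and 8 of these 82 windows (9.76%) held the NF-κB letters, against 1.08% of all 33469 windows of the same length. The 8 were those of Ccl7, Ccr3, Cxcl1, Cxcl6, Cxcl10, Cxcl11, Il6 and Il22ra1. The response element letters were in 5 of 82 (6.1%), against 3.41% of all. In Cxcl1 and Cxcl10 a match on the other strand overlapped a match on the strand shown. A match describes the letters only. Other spellings of either motif were not searched, so a window without a match may still hold a binding site.

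A member was called detected on an array when its detection p-value, the share of negative control probes that read at least as bright, was under 0.05. On no array were 25 of the 106 genes detected, among them Ccl9, Ccl11, Cxcl3, Cxcl6, Cxcr5, Il2, Il3, Il9, Il12a, Il13, Il25, Il2ra, Il2rg, Il7r, Il10ra, Il18r1, Il1rap and Il6st. A further 17 were detected on some arrays but in too few replicates to be tested. One of these was Il6, the main inducer of the acute phase response, which was detected on 3 of 5 arrays of day 28 and on no array of any other group. A probe at background does not show that its gene is silent. For Il33, 1 probe was detected on 24 arrays and the other on 0, and for Cxcl16 on 23 and 1. The number of member genes detected per array was highest in cadaveric liver (50 to 58, median 52.5), lower in isolated hepatocytes (39 to 42, median 41) and in day 2 constructs (35 to 40, median 37.5), and higher again on day 15 (42 to 47, median 45) and day 28 (44 to 53, median 48). The cadaveric liver arrays did not overlap those of hepatocytes, day 2 or day 15, as the plot of detected members per array shows. Of all probes, a median of 46.15% was detected in liver, 43.2% in hepatocytes, 45.78% on day 2, 49.23% on day 15 and 49.81% on day 28. Of the 15 chemokine receptors, 2 were detected on every hepatocyte array and 5 on every cadaveric liver array. At a stricter detection p-value of 0.01, the members detected on every day 15 array numbered 22 in place of 35.

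**Figure D1:**
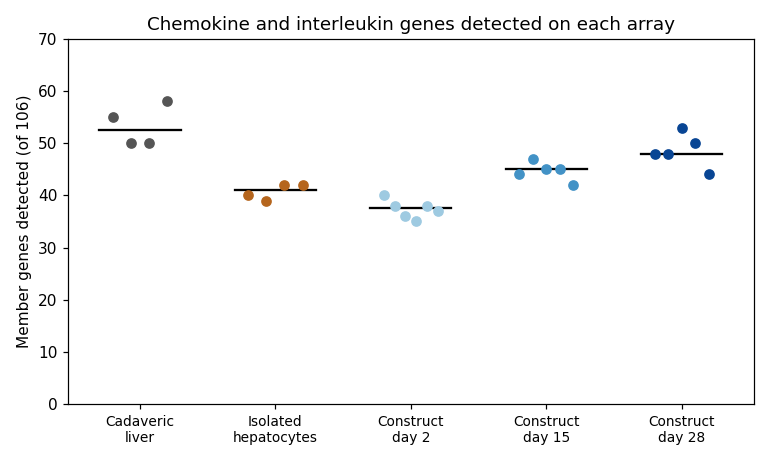
Number of chemokine, interleukin and receptor genes (y axis, of 106) with a detection p-value under 0.05 on each of the 24 arrays (points), by group (x axis), with the group median as a line. The medians run from 37.5 on day 2 to 52.5 in cadaveric liver.

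Levels below are log2 intensities after background correction and quantile normalization, differences are on the same log2 scale, and a member was called when its adjusted p in limma was under 0.05. Over all 5 groups 64 members were tested and 53 were called in the F test, where 82.9% of all 8825 genes were called. Among the constructs 47 were tested and 22 were called over the 3 days, where 59.7% of all 8283 genes were called. Where a member was detected on no array of a group, its fold is a lower bound: the dim side was set, array by array, to the weakest signal that counted as detected, or to the probe's own signal where that was higher. A member at background in a group met the detection filter through other groups, where it was brighter. Counts of higher and lower members include such cases. The heat map of fitted differences shows all 64.

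**Figure D2:**
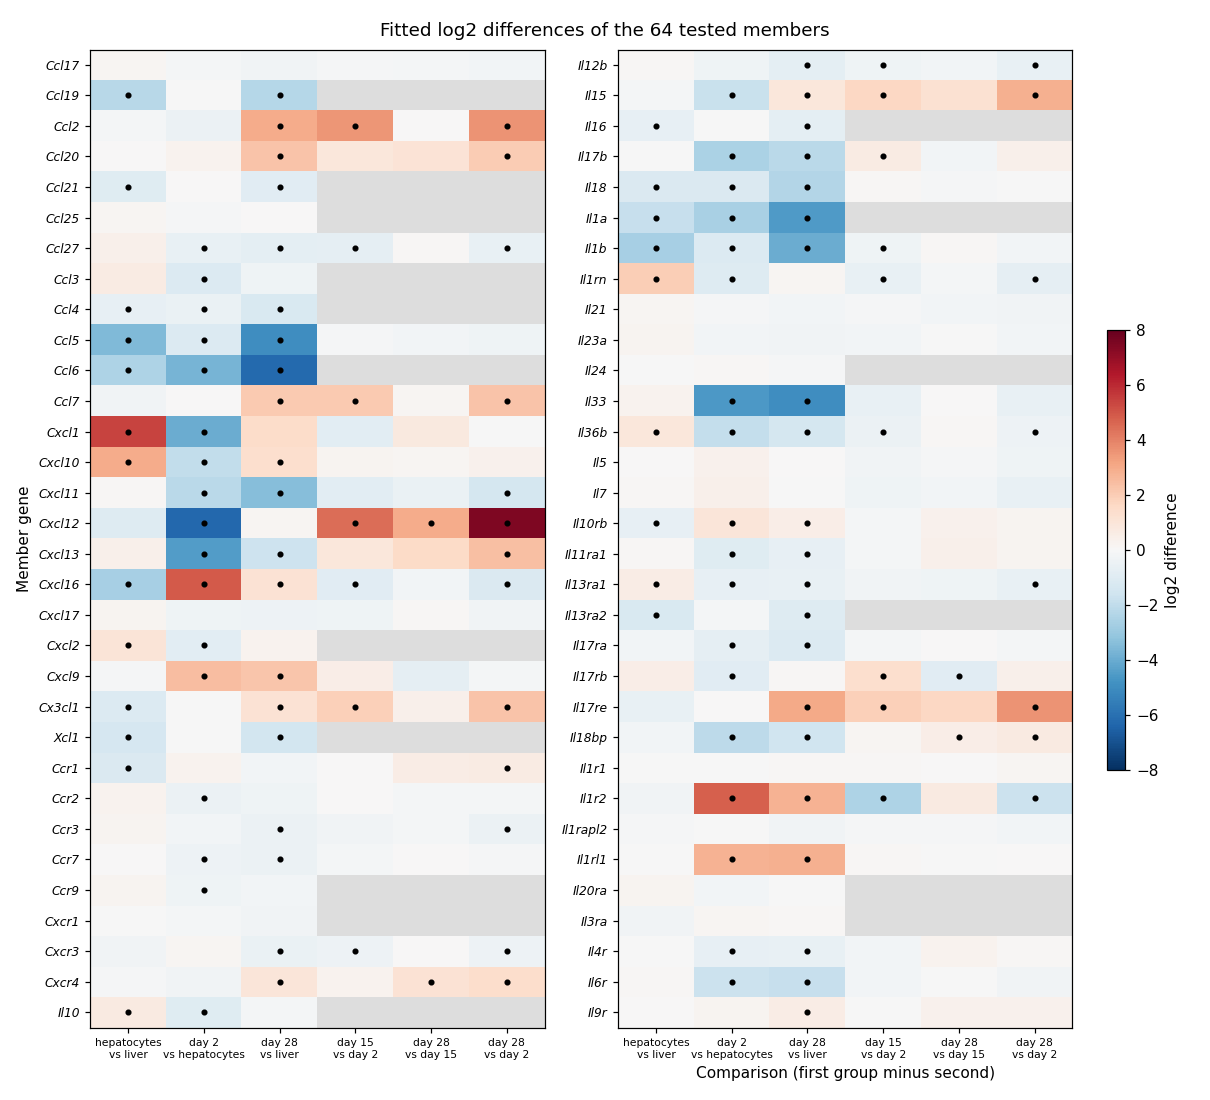
Fitted log2 difference (colour scale, red higher and blue lower in the group named first) of each of the 64 tested members (rows, by class) in 6 comparisons (columns). Black dots mark an adjusted p under 0.05 and grey cells members not tested among the constructs. Cxcl12 spans the widest range, from -6.27 for day 2 against hepatocytes to 7.45 for day 28 against day 2.

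Isolated hepatocytes were compared with cadaveric liver to see what differed at the start of the culture. The chemokines Cxcl1, Cxcl2 and Cxcl10 and the IL-1 receptor antagonist Il1rn were higher in the isolated cells, while CC chemokines such as Ccl5 and Ccl6 and the cytokines Il1a and Il1b were lower. Of 64 members 7 were higher and 15 lower (22.7% of all 8825 genes called, 11.3% higher and 11.3% lower). The median difference was -0.02 over the members and 0.045 over all genes. By class, 3 of 9 tested CXC chemokines were higher and 1 lower, 0 of 12 CC chemokines higher and 5 lower, and 3 of 16 interleukins and antagonists higher and 4 lower. Among the lower members, Ccl4, Ccl19, Ccl21, Il13ra2, Il16 and Xcl1 met the detection filter mainly through liver. Among the higher, Cxcl2 and Il10 met it mainly through hepatocytes. The direction of these members was thus largely set by the filter.

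Cxcl1 (probe ILMN_1355237), which attracts neutrophils through CXCR2, read 7.63, 6.95, 10.03 and 6.99 in the 4 cadaveric livers and 13.69, 12.09, 13.49 and 14.08 in the 4 hepatocyte samples. Every hepatocyte sample lay above every liver, one of which (replicate 3) stood above the rest. The difference was 5.44 (standard error 0.61, adjusted p = 1.8e-06), and 6.15 without that liver. Cxcl2, its neighbour with the same receptor, was detected in no liver and in 3 of 4 hepatocyte samples, at least 1.54-fold higher (adjusted p = 0.00146). Cxcl10, an interferon-inducible ligand of CXCR3, read 7.52, 5.83, 6.78 and 7.25 in liver and 10.28, 8.43, 9.81 and 10.77 in hepatocytes, a difference of 2.98 (standard error 0.45, adjusted p = 7.5e-05). The other ligands of that receptor did not follow it: Cxcl9 differed by -0.08 (adjusted p = 0.893) and Cxcl11 by 0.08 (adjusted p = 0.903), with overlapping groups. Among interleukins, Il1rn, the secreted antagonist of the IL-1 receptor, read 6.79, 7.01, 7.31 and 6.57 in liver and 8.91, 8.88, 8.70 and 9.0 in hepatocytes. That is a difference of 1.95 (standard error 0.15, adjusted p = 1.0e-08) between groups well apart. Smaller increases passed the test for Il36b (0.91), the anti-inflammatory Il10 (0.73, with overlapping groups and detection on 1 liver array) and Il13ra1 (0.62), a receptor subunit for IL-13, which did not pass with median centring of the arrays.

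Members known as products of leukocytes were among those lower in hepatocytes. Ccl5, made by T cells and natural killer cells, read 10.17, 9.17, 10.24 and 10.23 in liver and 6.33, 6.93, 6.11 and 6.33 in hepatocytes, a difference of -3.53 (standard error 0.22, adjusted p = 1.1e-09). Ccl6, a rodent chemokine of macrophages, differed by -2.48 (adjusted p = 4.0e-08), from a mean of 10.77 in liver to 8.29. Of the IL-1 family cytokines, Il1b (-2.67), Il1a (-1.83) and Il18 (-1.17) were lower and remained detected on every hepatocyte array, Il36b was higher as given above, and Il33 did not pass (0.25, adjusted p = 0.849). Il1b read between 8.15 and 9.42 in liver and between 5.92 and 6.39 in hepatocytes, so that the groups lay far apart (adjusted p = 1.1e-08). Cxcl16, a membrane-bound ligand of CXCR6, differed by -2.63 (standard error 0.25, adjusted p = 2.5e-07). Members detected on every liver array and on no hepatocyte array were Ccl19 (at least 3.35-fold lower), Il13ra2 (1.74), Ccr1 (1.58), Xcl1 (1.57) and Cx3cl1 (1.48), each figure being a lower bound in folds. Beside them, 10 of 11 tested Kupffer cell and macrophage markers, 9 of 11 T and natural killer cell markers, 5 of 6 endothelial markers and 8 of 10 stellate cell and myofibroblast markers were lower in hepatocytes. The summed level of the 12 macrophage markers on the array was 13.19 to 14.00 in liver and 11.31 to 11.63 in hepatocytes, and that of the 16 T and natural killer cell markers 9.77 to 10.54 and 8.73 to 8.93. The macrophage marker Adgre1 and the leukocyte marker Ptprc were detected on no hepatocyte array. The part of these cell types in the lower members was not tested. Of 14 immediate early genes, the first genes transcribed after a stimulus, 13 were higher in hepatocytes, with a median of 2.49, and their part in the higher chemokines was not tested.

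**Figure D3:**
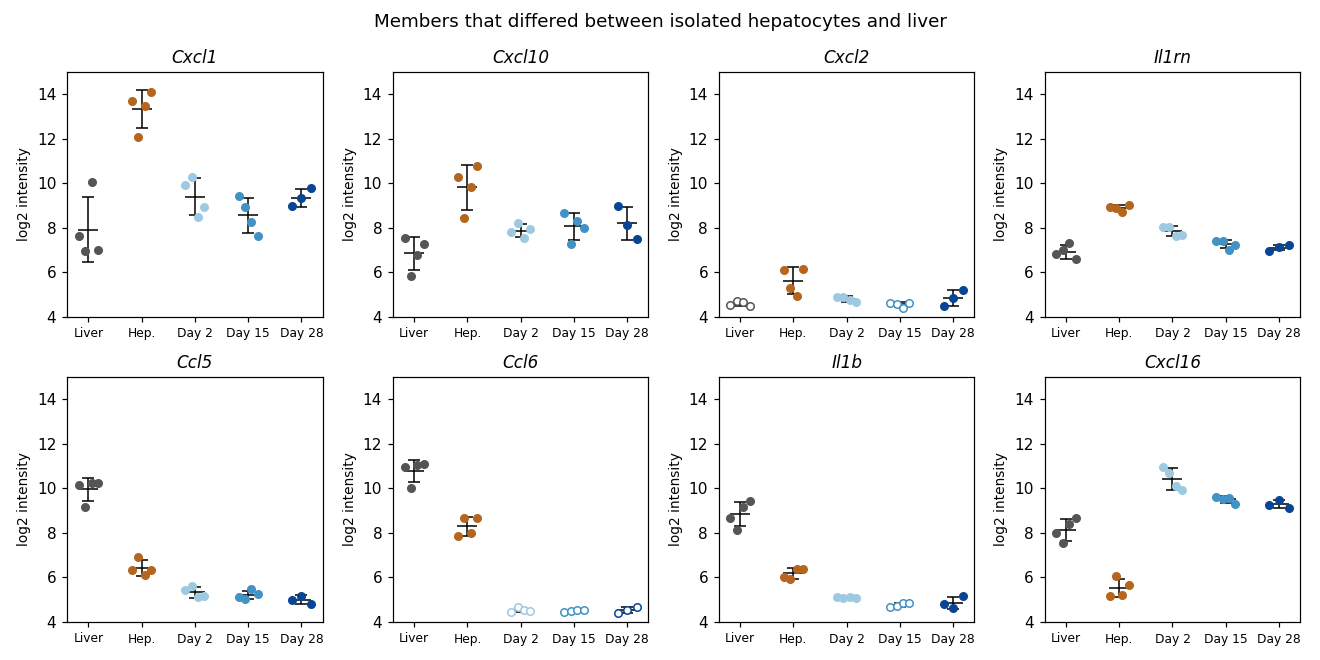
log2 intensity (y axis) of 8 members in each sample (points; filled where the probe was detected on at least 1 array of the group, open where on none), with the group mean and SD, in cadaveric liver, isolated hepatocytes and constructs of day 2, 15 and 28. Cxcl1, Cxcl10, Cxcl2 and Il1rn were higher and Ccl5, Ccl6, Il1b and Cxcl16 lower in hepatocytes than in liver.

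Day 2 constructs were compared with the isolated cells to see how the cells differed after the first days on the scaffold. Most called members were lower on day 2: 30 were lower and 5 higher of 64 (58.3% of all genes called, 25.7% lower and 32.6% higher). The median difference was -0.32 over the members and 0.02 over all genes. With arrays centred on their medians in place of quantile normalization, the differences of all genes shifted by 0.35 (median), and 5 members were higher and 23 lower. By class, 6 of 9 CXC chemokines were lower and 2 higher, 9 of 16 interleukins and antagonists lower and 0 higher, and 7 of 17 interleukin receptors and binding proteins lower and 3 higher. Among the lower members, Ccl3, Ccl4, Ccl6, Cxcl13, Il1a, Il10 and Il17b were detected on no day 2 array. Among the higher, Il1r2 and Il1rl1 were detected on no hepatocyte array. These members met the detection filter through other groups.

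Among the chemokines, Cxcl12 (probe ILMN_1351603), the ligand of CXCR4 that retains stem cells and lymphocytes in tissues, showed the largest fitted decrease of any member. It read 11.55, 11.56, 11.30 and 11.65 in hepatocytes and 5.04, 5.63, 5.23 and 5.08 on day 2, a difference of -6.27 (standard error 0.51, adjusted p = 7.2e-09), with 5 of 6 day 2 arrays still above background. Cxcl13, which attracts B cells, was detected on every hepatocyte array and on no day 2 array, and was at least 18-fold lower (adjusted p = 9.8e-07). Ccl6 likewise fell to background, at least 9.58-fold lower (adjusted p = 4.0e-11). Cxcl1 decreased by 3.94 (standard error 0.61, adjusted p = 1.9e-05) to values between 8.47 and 10.27. Cxcl10 (-1.96) and Cxcl11 (-2.14) also decreased, and their companion Cxcl9 moved the other way. Cxcl9 read 8.73, 9.50, 9.76 and 10.11 in hepatocytes and 12.22, 12.45, 11.29 and 12.004 on day 2, an increase of 2.47 (standard error 0.32, adjusted p = 2.2e-06). The 3 ligands of CXCR3 thus differed in direction at this step, while Cxcr3 itself, a receptor of T cells, did not pass the test. Cxcl16 rose furthest of the chemokines, from 5.17, 6.04, 5.19 and 5.66 to 10.95, 10.70, 10.08 and 9.93, a difference of 4.90 (standard error 0.25, adjusted p = 1.6e-11). A second Cxcl16 probe was detected on 1 of the 24 arrays and gives no value for this.

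Within the IL-1 family, several ligands fell and the receptors Il1rl1 and Il1r2 rose, while the signalling receptor Il1r1 (-0.05, adjusted p = 0.847) and Il1rapl2 (5.51 in both groups) were not called. Il33 (probe ILMN_1367779), a nuclear cytokine released by damaged cells, read 11.51, 11.74, 11.79 and 11.87 in hepatocytes and 7.19, 7.10, 7.19 and 7.03 on day 2, a difference of -4.60 (standard error 0.70, adjusted p = 1.5e-05). Its second probe was detected on no array. Il1rl1, the receptor of IL-33 also called ST2, was detected on no liver or hepatocyte array and on all 6 day 2 arrays, where the 4 constructs read 6.49, 7.09, 7.42 and 7.75, at least 4.05-fold higher than in hepatocytes (adjusted p = 1.5e-04). Il1r2, a decoy receptor that binds IL-1 without signalling, went from background in all 4 hepatocyte samples to 9.50, 8.44, 9.67 and 9.25, at least 16.5-fold higher (adjusted p = 3.5e-10). The ligands of that receptor were lower: Il1a fell to background on all day 2 arrays, at least 4.18-fold (adjusted p = 9.5e-12), and Il1b decreased by 1.08 (adjusted p = 1.4e-04). The decreases were -1.03 for Il1rn, -1.92 for Il36b, -1.13 for Il18 and -2.07 for Il18bp, the secreted inhibitor of IL-18 (adjusted p = 2.0e-10). Outside the family, Il17b fell to background, at least 3.85-fold lower (adjusted p = 3.0e-07), and Il15, a growth factor of natural killer cells, decreased by 1.75. The receptors Il6r (-1.70), Il11ra1 (-0.97), Il17rb (-0.89), Il17ra (-0.74), Il4r (-0.68) and Il13ra1 (-0.63) decreased, the last 4 only with quantile normalization and not with median centring, and Il10rb, a subunit shared by several IL-10 family receptors, increased by 0.96 (adjusted p = 3.1e-06). Day 2 constructs also had 7 of 11 macrophage markers, 4 of 6 endothelial markers and 6 of 11 hepatocyte markers lower than hepatocytes, the summed hepatocyte markers standing at 17.06 to 17.21 against 17.70 to 17.81. Other lists moved little: 1 of 11 T and natural killer cell markers and 1 of 4 neutrophil markers were lower and 0 higher. Of 10 stellate cell and myofibroblast markers 1 was higher and 1 lower, as were 1 and 1 of 5 cholangiocyte markers. The summed macrophage markers stood at 10.38 to 10.68 on day 2 and Marco, Adgre1, Cd163, Aif1 and Ptprc were at background, and the part of those cells in the decreases was not tested.

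**Figure D4:**
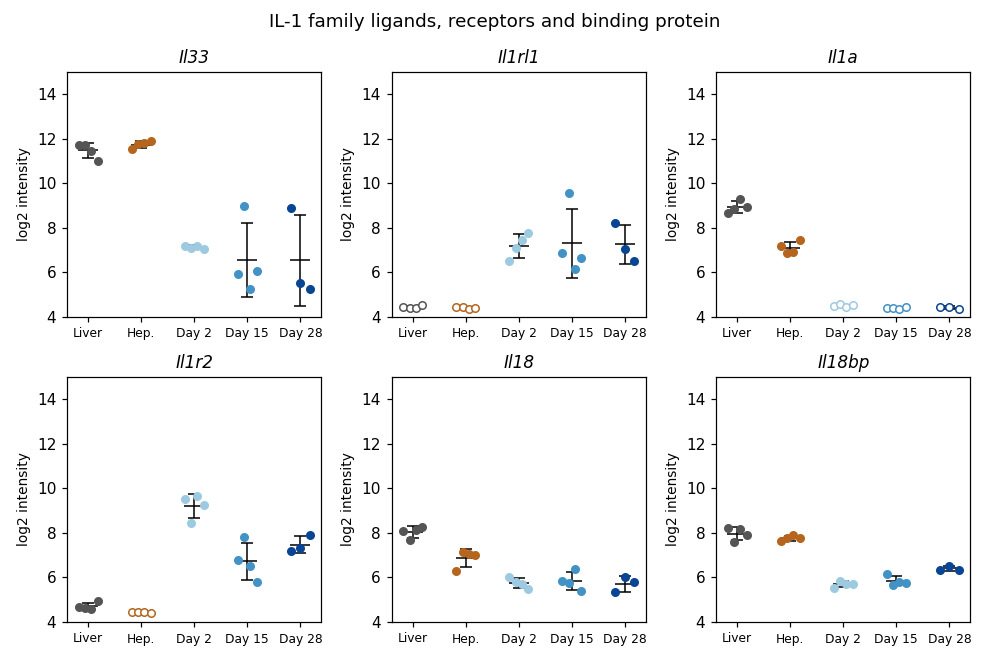
log2 intensity (y axis) of 6 IL-1 family genes in each sample (points; filled where detected on at least 1 array of the group, open where on none), with the group mean and SD. Il33, Il1a, Il18 and Il18bp are lower on day 2 than in hepatocytes, and Il1rl1 and Il1r2, at background in hepatocytes, are higher.

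The constructs of days 2, 15 and 28 were compared to follow the culture. Among the members that rose were Cxcl12, Ccl2, Cx3cl1 and Il15, and among those that fell were Il1r2, Il1rn, Cxcl16 and Ccl27. From day 2 to day 15, 8 of 47 members rose and 8 fell (49.1% of all 8283 genes called, 21.4% higher and 27.7% lower). From day 15 to day 28, 3 rose and 1 fell (9.19% of all genes called, 4.37% higher and 4.82% lower). From day 2 to day 28, 11 rose and 10 fell (57.2% of all genes called, 22.3% higher and 34.9% lower). The 2 comparisons with day 2 share those constructs. Among the members that rose, Ccl2, Ccl7, Cx3cl1, Cxcl13, Cxcr4, Il17b and Il17re were detected on no day 2 array, and Ccl20 on 1 of 6. They met the detection filter through the later days. Il1b, which fell by day 15, was detected on no day 15 array and met it mainly through day 2. The direction of these members was thus largely set by the filter. The balance of directions depended on the scaling, since with median centring 8 members rose and 5 fell by day 15 and 14 rose and 7 fell by day 28, and no call changed its direction.

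Cxcl12 returned during the culture. It read 11.23, 11.15, 8.35 and 8.15 in the 4 day 15 constructs and 12.96, 12.87 and 12.25 in the 3 of day 28, after 5.04 to 5.63 on day 2. Day 15 lay 4.48 above day 2 (standard error 0.64, adjusted p = 2.1e-04) and day 28 lay 7.45 above it (standard error 0.69, adjusted p = 9.7e-06). The step from day 15 to day 28 was 2.98 (standard error 0.69, adjusted p = 0.0252), with no overlap, but it did not pass without day 15 replicate 3 or 4 or any 1 of the day 28 replicates (2.45 to 3.20, adjusted p from 0.0554 to 0.0955). Day 28 did not differ detectably from cadaveric liver, where Cxcl12 read 12.65, 12.42, 12.56 and 12.50 (difference 0.16, standard error 0.56, adjusted p = 0.824). The day 15 constructs fell into pairs, replicates 1 and 2 above replicates 3 and 4, and the same pairs stood apart in Il15 (8.36 and 8.77 against 7.17 and 6.49) and in Il17re (7.38 and 7.48 against 5.71 and 5.18). The summed stellate cell and myofibroblast markers split likewise, at 14.73 and 15.16 against 12.74 and 12.27, after 9.10 to 9.25 on day 2 and before 14.40 to 15.24 on day 28. The summed cholangiocyte markers did not split so, at 12.07 and 12.31 against 12.44 and 12.32, nor did Cx3cl1 (6.81 and 5.92 against 6.91 and 6.29). All 10 tested stellate cell and myofibroblast markers and all 5 of the cholangiocyte list were higher on day 28 than on day 2. Their part in the rise of Cxcl12 was not tested. The receptor of Cxcl12, Cxcr4, was at background on every day 2 array and read 4.79, 5.18, 4.54 and 4.76 on day 15 and 5.45, 6.06 and 6.39 on day 28. It rose by 1.15 in the last step (standard error 0.20, adjusted p = 0.00837), the 1 call of that step that held whichever construct was left out. Cxcr4 was, however, detected on only 2 of 5 day 15 arrays and met the detection filter mainly through day 28. The direction of its change was thus largely set by the filter.

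The monocyte chemokines Ccl2 and Ccl7, which share the receptor CCR2 and whose genes neighbour each other, appeared between day 2 and day 15. Ccl2 was detected on no day 2 array and read 8.11, 10.74, 6.97 and 7.09 on day 15 and 9.86, 7.30 and 7.70 on day 28, a rise over day 2 of at least 9.18-fold by day 15 (adjusted p = 0.00292) and of at least 9.56-fold by day 28 (adjusted p = 0.00336). Ccl7 read 6.47, 9.31, 5.24 and 6.09 on day 15 and 8.30, 6.16 and 6.42 on day 28, at least 3.36-fold (adjusted p = 0.0349) and at least 3.81-fold higher (adjusted p = 0.0296). Day 15 replicate 2 and day 28 replicate 1 read highest in both genes. Without the former, the day 15 difference was 2.70 in place of 3.54 for Ccl2 and 1.25 in place of 2.10 for Ccl7. Without the latter, the day 28 difference was 2.81 in place of 3.60 for Ccl2 and 1.61 in place of 2.28 for Ccl7, which then did not pass (adjusted p = 0.136). The day 15 call of Ccl7 was also lost without day 15 replicate 1 or any 1 of the day 2 replicates (adjusted p from 0.0539 to 0.0739), and its day 28 call without any 1 of the day 2 replicates (0.0509 to 0.0597). Neither call of Ccl7 passed without background correction or without the detection filter. The same constructs were the highest of their day in Il33 (8.96 and 8.89, the others at most 6.06) and Il1rl1 (9.56 and 8.19, the others at most 7.05). Neither of these genes differed detectably between the days, with adjusted p from 0.596 to 0.999 in the 6 tests. Ccr2, the receptor, was not called in any construct comparison.

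Other ligands rose as well. Cx3cl1, a membrane-bound chemokine, was at background on day 2 and read 6.81, 5.92, 6.91 and 6.29 on day 15 and 6.62, 7.14 and 6.92 on day 28, a rise of at least 2.74-fold by day 15 (adjusted p = 2.9e-05). Il15 rose from 5.70 to 6.29 on day 2 to 8.35 to 9.56 on day 28, a difference of 2.86 (standard error 0.48, adjusted p = 4.1e-04). Il17re, a receptor subunit that serves IL-17C on epithelium, was detected on no day 2 array and read 8.61, 8.12 and 7.58 on day 28, at least 8.43-fold higher (adjusted p = 1.2e-04). Ccl20, the ligand of CCR6, read 6.42, 7.06 and 6.68 on day 28 against 4.43 to 5.25 on day 2, a difference of 2.00 (adjusted p = 0.00119), and Cxcl13 returned on day 28 to 6.81, 8.26 and 6.23, at least 4.21-fold above day 2 (adjusted p = 0.00441). Il17rb, a receptor of IL-25, was highest on day 15, at 8.32 ± 0.20 (SD, n = 4) against 6.97 ± 0.23 on day 2 and 7.40 ± 0.53 (n = 3) on day 28. It rose by 1.35 (adjusted p = 2.9e-04) and then decreased by 0.92 (adjusted p = 0.0277). The decrease did not pass without day 15 replicate 3 or 4 or day 28 replicate 1 or 3 (adjusted p from 0.0624 to 0.116). A second Il17rb probe, detected on all 24 arrays, followed the same course. It read 6.98 ± 0.07 on day 2, 8.09 ± 0.17 on day 15 and 7.21 ± 0.22 on day 28. Il18bp rose by 0.56 in the last step (adjusted p = 0.0206) and did not pass without day 15 replicate 3 or 4 or day 28 replicate 1 or 2 (0.0549 to 0.0701).

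**Figure D5:**
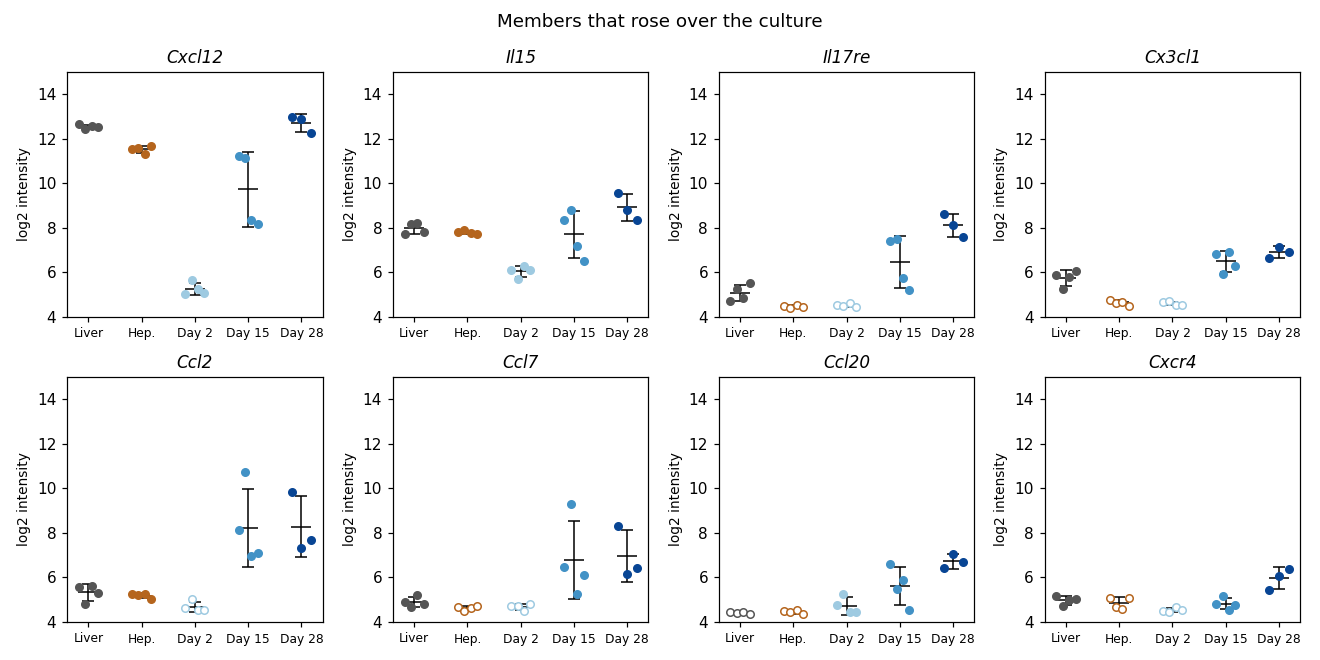
log2 intensity (y axis) of 8 members that rose in the constructs, in each sample (points; filled where detected on at least 1 array of the group, open where on none), with the group mean and SD. Cxcl12 is at 5.04 to 5.63 on day 2 and at 12.25 to 12.96 on day 28, and the highest Ccl2 and Ccl7 values are those of day 15 replicate 2 and day 28 replicate 1.

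Of the 5 members that had risen by day 2, Il1r2 and Cxcl16 fell afterwards, and Cxcl9, Il1rl1 and Il10rb were called in no comparison between construct days. Il1r2 went from 8.44 to 9.67 on day 2 to 6.78, 7.80, 6.53 and 5.78 on day 15, a decrease of 2.49 (standard error 0.39, adjusted p = 3.4e-04), and stood at 7.20, 7.31 and 7.89 on day 28. Against day 2, Cxcl16 differed by -0.91 on day 15 (adjusted p = 0.00335) and by -1.13 on day 28. The same differences were -0.59 and -0.75 for Il1rn, -0.71 and -0.60 for Ccl27, -0.34 and -0.58 for Il12b, the p40 subunit of IL-12 and IL-23, and -0.49 and -0.39 for Il36b. The day 15 decreases of Il12b and Il36b did not pass with median centring, nor did the day 28 decrease of Il36b. The day 28 decrease of Il36b did not pass without any 1 of day 2 replicates 1, 2 and 4 or of day 28 replicates 1 and 2 (adjusted p from 0.0636 to 0.197). Cxcl11 decreased by 1.38 from day 2 to day 28 (adjusted p = 0.0186), a call lost without day 28 replicate 1 or 3 (-1.33, adjusted p = 0.0535, and -0.93, adjusted p = 0.0888). Cxcl1, Cxcl9 and Cxcl10 did not pass any construct comparison, their differences lying between -0.84 and 0.80.

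Day 28 constructs were compared with cadaveric liver to see how far the oldest cultures differed from the tissue. Of 64 members 14 were higher and 27 lower (57.1% of all genes called, 29.5% higher and 27.6% lower), and 16 were higher and 20 lower with median centring, which shifted the differences of all genes by 0.36 (median). By class, 6 of 12 CC chemokines were lower and 3 higher, 8 of 16 interleukins and antagonists lower and 1 higher, and 7 of 17 interleukin receptors and binding proteins lower and 5 higher. Among the lower members, Ccl4, Ccl19, Ccl21, Il16 and Xcl1 met the detection filter mainly through liver, and Ccl6 and Il1a through liver and hepatocytes. Among the higher, Ccl7, Ccl20, Cxcr4, Il17re, Il1r2 and Il1rl1 met it mainly through the constructs. The direction of these members was thus largely set by the filter. Ccl6 was at background on every day 28 array, at least 59.4-fold lower (adjusted p = 1.4e-13), and Il1a at least 16.4-fold lower (adjusted p = 1.6e-14). Ccl5 read 5.0, 5.18 and 4.80 on day 28, a difference of -4.96 (standard error 0.23, adjusted p = 6.4e-12), and Il1b differed by -3.99 (adjusted p = 4.1e-11). Il33 differed by -4.94 (standard error 0.75, adjusted p = 1.8e-05), by -6.12 without day 28 replicate 1 and by -4.29 without replicate 3. Also lower were Cxcl11 (-3.43, adjusted p = 2.3e-07), Il18 (-2.33), Il17b (-2.17), Il6r (-1.87) and Il18bp (-1.57). These changes stood beside 10 of 11 macrophage markers and 10 of 11 T and natural killer cell markers that were lower on day 28, with summed levels of 10.54 to 11.19 and 8.68 to 9.16. In the T and natural killer cell list 1 marker was higher. Of the other lists, 5 of 6 endothelial markers were lower than in liver and 1 higher, and 5 of 11 hepatocyte markers were lower and 0 higher. Of 10 stellate cell and myofibroblast markers 7 were higher and 1 lower. The part of those cells was not tested. Higher than in liver were Il17re (3.04, adjusted p = 5.0e-06), Ccl2 (2.96, adjusted p = 0.00101, and 2.18 without day 28 replicate 1), Il1rl1 (at least 4.75-fold, adjusted p = 3.1e-04), Il1r2 (2.77, adjusted p = 1.3e-06), Ccl20 (at least 3.3-fold, adjusted p = 5.0e-06), Cxcl9 (2.22, adjusted p = 2.1e-05), Ccl7 (2.06, adjusted p = 0.0102), Cx3cl1 (1.16) and Cxcl16 (1.14). Ccl7 did not pass without day 28 replicate 1 (1.39, adjusted p = 0.0901). Cxcl1 (1.45, adjusted p = 0.0684) and Il1rn (0.17, adjusted p = 0.363) did not pass. Both passed with median centring, and Cxcl1 also passed without cadaveric liver replicate 3.

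The genes through which these proteins signal moved in both directions. Of 19 tested genes of the NF-κB pathway and its feedback, 2 were higher and 1 lower in hepatocytes than in liver, shares near or below the 11.3% of all genes in each direction, the 2 being Nfkbia (1.51, adjusted p = 4.4e-07) and Nfkbiz (2.87, adjusted p = 3.8e-06), which encode inhibitors and cofactors of NF-κB that it induces itself. On day 2, 8 of 19 were higher than in hepatocytes and 3 lower, where 32.6% of all genes were higher and 25.7% lower, with Lcn2 at 6.77 (adjusted p = 4.0e-10). Of 18 genes of Toll-like and IL-1 receptor signalling, 6 were lower in hepatocytes and 0 higher (11.3% of all genes in each direction), Tlr2 (-2.43) and the inflammasome genes Pycard (-2.62) and Casp1 (-2.32) among them.

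Of 27 JAK-STAT genes, 9 were higher and 9 lower on day 2 than in hepatocytes, near the shares of all genes (32.6% higher and 25.7% lower), with Stat3 higher (1.09, adjusted p = 9.8e-10) and the growth hormone feedback genes Socs2 (-2.65) and Cish (-2.43) lower. Of 17 acute phase genes that respond to IL-6, 5 were higher and 8 lower at that step, beside the same shares of all genes, A2m being higher (4.97, adjusted p = 2.2e-08) and Itih4 lower (-1.97), and on day 28 A2m stood 7.35 above cadaveric liver (adjusted p = 4.2e-10). Of 13 other cytokine and receptor genes 7 were higher on day 28 than on day 2 and 0 lower (22.3% of all genes higher and 34.9% lower), with Spp1 at 8.15 (adjusted p = 9.3e-07) and Csf1, the growth factor of macrophages, at 3.19 (adjusted p = 4.5e-05). Among chemokine genes outside the naming rule, Pf4 of platelets was lower in hepatocytes than in liver (-3.35, adjusted p = 7.9e-08). Rarres2, the precursor of chemerin, was lower on day 2 than in hepatocytes (-2.14) and rose by 1.16 from day 2 to day 28 (adjusted p = 3.6e-05).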

How the data were processed

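RNA of 19 samples was hybridized to 24 Illumina RatRef-12 arrays. The authors deposited probe intensities that were not normalized, a detection p-value for each probe on each array, and log2 values, to which background correction and quantile normalization in limma had been applied (limma version: not given in the sources used here). For 14 arrays the replicate number differed between the deposited tables, always within a group, and arrays were matched by value. The intensities were processed again in R 4.3.3 with limma 3.58.1 (normexp correction against the detection p-values, offset 16, removal of 842 control probes, quantile normalization, log2), which gave values within 0.0063 of the deposited log2 values, while any other array differed by at least 0.842. Both arrays of a construct were averaged.

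A probe was tested if its detection p-value was under 0.05 on every array of at least 3 samples, and the probe with the highest mean stood for a gene. Linear models with moderated statistics were fitted to 8825 genes over the 5 groups and to 8283 genes over the constructs, with Benjamini-Hochberg adjustment over all genes and a threshold of 0.05. Comparisons with liver or hepatocytes came from the first model and those among constructs from the second. Script output was tested on simulated data. Members with a tested probe could be named, with full statistics for the 10 largest called changes per comparison, and from each list of related genes the 4 with the lowest adjusted p. The members and lists were chosen with earlier results of these data known. Of the probes, 8730 had no gene symbol and were not searched for members. Alternatives were the deposited values, no background correction, median centring, other detection filters, every probe tested, 1 array per construct, other samples in the model, the replicate number as a block, analysis of variance over the construct days, and leaving out each sample.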

Additional observations from a re-analysis of the deposited data

Results flagged for a closer look

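In groups of 4 samples, a sample was singled out when its gap to the nearest other sample took up most of the range of the group (above Dixon's critical value). This held for 8 of 136 pairs of a member and a group, and chance alone marks about 1 in 20 such groups. In cadaveric liver, Ccl5 read 9.17 in replicate 2 and 10.17 to 10.24 in the others, and Ccl6 read 10.03 in the same replicate and 10.95 to 11.08 in the others. Ccr2 read 5.42 in liver replicate 4 and 5.28 in each of the others, and Cxcl17, a mucosal chemokine, read 6.12 in liver replicate 1 and 5.43 to 5.54 in the others. In isolated hepatocytes, Il18 read 6.28 in replicate 1 and 7.0 to 7.13 in the others, and Il11ra1, the receptor of IL-11, read 7.79 in replicate 2 and 7.50 to 7.54 in the others. In day 15 constructs, replicate 4 stood apart for Il12b (5.68 against 5.38 to 5.42) and for Il17ra (6.40 against 6.08 to 6.12).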

How the results depend on the processing

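Of 2262 values of 139 called member results under alternative settings, 2130 kept their direction and their side of the threshold, 130 lost the call (76 of them on leaving out a sample) and 2 reversed. A called member that failed the filter of a setting gave no value there and is not among the 130. With detection p under 0.01, hepatocytes against liver kept 17 of 22 calls, as Ccl4, Ccl21, Cxcl2, Il10 and Il16 were not tested. The deposited values, 1 of the settings, were within 0.0063 of the main values and could hardly differ. Both reversals were of Ccr7 with median centring, to 0.048 for day 2 against hepatocytes (adjusted p = 0.767) and to 0.027 for day 28 against cadaveric liver (adjusted p = 0.872); the cause was not tested. Leaving out 1 sample gave 20 to 24 called members for hepatocytes against liver, 33 to 36 for day 2 against hepatocytes, 35 to 41 for day 28 against liver, 14 to 18 for day 15 against day 2, 17 to 20 for day 28 against day 2, 49 to 53 in the F test over 5 groups and 18 to 22 in that over the constructs. For day 28 against day 15 the count of 4 ranged from 1 to 8: it was 8 without day 15 replicate 1, 7 without day 15 replicate 2, 1 without day 15 replicate 3 or 4 or day 28 replicate 1, and 2 without day 28 replicate 2 or 3. With a detection p-value under 0.01, 22 members in place of 35 were detected on every day 15 array. Of 36 same-numbered pairs of samples, 5 correlated above 0.1 (range -0.28 to 0.27), all of them among the 10 pairs between construct days and 3 among the 4 of day 2 and day 15, so the numbers were not taken to pair the samples. Of 20 cases of a construct set against another construct day, 8 correlated best with their own number. With the replicate number as a block, 22, 35, 41, 17, 3 and 17 members were called for hepatocytes against liver, day 2 against hepatocytes, day 28 against liver, day 15 against day 2, day 28 against day 15 and day 28 against day 2. Calls lost under it were Ccl7 (adjusted p = 0.0527), Cxcl11 (0.0517), Il36b (0.0753), Ccr1 (0.0649) and Ccr3 (0.0706) for day 28 against day 2, Il18bp (0.07) for day 28 against day 15 and Il15 (0.0816) for day 28 against liver. The F tests with that block called 53 and 19 members. The number of arrays limits the precision, and both arrays of a construct differed by a median of 0.079 to 0.13 over the members.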
